A study of Mus musculus with 20 samples.

Results

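The 137 genes described here are the protein-coding genes that surround Abca7 on mouse chromosome 10. They were chosen by position and level: each starts within the 4500000 bases that follow position 78000000 of the chromosome (mm10) and averaged at least 10 raw counts over the 20 libraries, and Abca7 itself was left out. They are 137 of the 169 protein-coding genes that start in this window, and of the 15615 protein-coding genes of the genome that reach the same count minimum. The 31 window genes under the minimum include olfactory (Olfr) and vomeronasal (Vmn2r) receptor genes, the DNA methyltransferase cofactor Dnmt3l at a mean of 5.85 counts and the neutrophil elastase gene Elane at a mean of 0.65 counts. The upper end of the range is Eef2, at a mean of 34033 counts.

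RNA of the cerebral cortex was sequenced from 4 groups of 5 libraries: Abca7 knockin (KI) mice at 10 months, Abca7 wild-type controls at 10 months, KI mice at 3 months and controls at 3 months. Every animal in all groups, controls included, was 5xFAD+/-, a transgenic line that makes human amyloid precursor protein and presenilin with familial Alzheimer mutations in neurons. The knockin allele carries an alanine-to-serine substitution in Abca7; the labelled protocol names male heterozygous and homozygous KI littermates, which of these zygosities a library had is not in its label. Whether the libraries come from different animals is not stated, and the p-values measure the spread between libraries.

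Abca7 encodes an ATP-binding cassette transporter that moves phospholipids across membranes, and its human counterpart lies in a region associated with Alzheimer disease risk. A knockin allele is inherited together with the chromosome stretch around it, so the neighbouring genes are the usual place to look for altered regulation in cis: an edit, or linked DNA that came with it, acting on genes of the same chromosome. The genes around Abca7 lie close together and have mixed roles. They encode subunits of RNA polymerases and ribosomes, splicing factors, mitochondrial enzymes, synaptic proteins and receptors of blood cells, with a cluster of zinc finger genes at one end.

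The promoters of 4 genes named in the results are printed: Cnn2 and Hmha1 lie directly on either side of Abca7, Celf5 is the member whose KI and control libraries separated at 10 months, and Icosl is the member with the smallest adjusted p for age in both genotypes. Each is the 300 bases of the first RefSeq promoter listed for the gene in GRCm38.p6 (the build also called mm10), 5′ to 3′ on the strand of the gene, with every CpG dinucleotide in capitals. The Cnn2 promoter is chr10:79988350-79988649 on the plus strand, and that of Hmha1, listed by RefSeq as Arhgap45, is chr10:80016422-80016721 on the plus strand. The Celf5 promoter is chr10:81482650-81482949 on the minus strand, and the Icosl promoter is chr10:78069118-78069417 on the plus strand.
Cnn2: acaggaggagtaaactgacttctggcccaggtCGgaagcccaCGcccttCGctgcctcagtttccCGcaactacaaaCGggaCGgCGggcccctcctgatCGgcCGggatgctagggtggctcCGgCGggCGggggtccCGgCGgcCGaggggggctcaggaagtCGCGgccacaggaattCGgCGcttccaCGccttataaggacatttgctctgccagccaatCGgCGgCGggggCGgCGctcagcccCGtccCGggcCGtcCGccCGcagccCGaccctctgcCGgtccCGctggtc
Hmha1: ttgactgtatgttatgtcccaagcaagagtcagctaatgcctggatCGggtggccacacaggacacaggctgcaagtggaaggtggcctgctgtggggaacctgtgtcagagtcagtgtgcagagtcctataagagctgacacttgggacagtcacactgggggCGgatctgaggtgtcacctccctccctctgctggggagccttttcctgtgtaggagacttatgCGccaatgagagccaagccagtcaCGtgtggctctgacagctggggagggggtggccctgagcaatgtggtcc
Celf5: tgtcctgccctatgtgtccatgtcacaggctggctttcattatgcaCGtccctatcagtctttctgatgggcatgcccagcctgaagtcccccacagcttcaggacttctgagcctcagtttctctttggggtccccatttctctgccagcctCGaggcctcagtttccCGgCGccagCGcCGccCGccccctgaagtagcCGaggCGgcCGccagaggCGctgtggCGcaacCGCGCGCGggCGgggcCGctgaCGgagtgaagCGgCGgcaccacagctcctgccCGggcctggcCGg
Icosl: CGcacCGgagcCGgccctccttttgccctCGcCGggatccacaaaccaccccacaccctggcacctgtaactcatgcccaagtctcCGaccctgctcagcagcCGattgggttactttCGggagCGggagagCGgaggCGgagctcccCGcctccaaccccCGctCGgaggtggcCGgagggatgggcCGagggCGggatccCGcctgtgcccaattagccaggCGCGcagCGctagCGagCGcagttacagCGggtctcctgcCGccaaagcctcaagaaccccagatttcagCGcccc
The Cnn2, Celf5 and Icosl promoters hold 33, 23 and 26 CpG dinucleotides, against 4 in the first listed Hmha1 promoter. CpG-dense promoters were the rule in the window: the 117 members with a RefSeq promoter had a median of 23 CpG per 300 bases and 62.0% GC, against 13 CpG and 56.3% GC over the first promoters of 17491 RefSeq protein-coding genes. The motif GGGCGG, searched on both strands, occurred in 78 of the 117 member promoters, or 66.7%, against 46.3% of the 17491 promoters, and in each of the 4 printed here. The motif TATAAA, also on both strands, occurred in 11.1% of member promoters and 13.3% of the 17491 promoters. These matches describe the letters of the windows, and a link of promoter sequence to genotype or age was not tested. RefSeq lists 3 promoters for Hmha1 and 5 for Celf5, of which only the first is printed.

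Library totals ran from 42896149 to 57447015 counts, and members took between 0.462% and 0.818% of them. One library went against its label. The library labelled KI replicate 5 at 10 months had 54206 counts of Xist, the X-inactivation RNA of female cells, and 1 count of the Y-linked gene Ddx3y; in the other 19 libraries Xist reached 218 counts at the highest and Ddx3y was never under 2382 counts. KI replicate 3 at 3 months had the lowest member share, 0.462%. Values without these libraries are given beside the results that they moved most. Summed CPM (counts scaled to a library total of 1000000) of 6 cortical excitatory neuron markers ran from 1226 to 1795 over all libraries. Markers of the choroid plexus, a tissue next to the cortex, summed to a median of 35.4 CPM in KI and 822 CPM in control libraries at 10 months, and of 1033 CPM in KI and 812 CPM in control libraries at 3 months. Their ranges overlapped (22.02 to 1266 CPM in KI and 27.5 to 2091 CPM in control at 10 months), all 6 markers were counted, and their part in the genotype comparisons was not tested.

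Abca7 was measured first, because a change in its own RNA would mark the edited locus. It had 24.1, 21.3, 20.1, 25.8 and 29.9 CPM in the 5 KI libraries at 10 months, against 22.7, 26.3, 33.0, 30.3 and 24.4 CPM in controls. At 3 months it had 18.5, 22.4, 26.5, 30.9 and 27.8 CPM in KI libraries and 27.05, 29.4, 29.3, 26.6 and 27.2 CPM in controls. The groups overlapped at both ages. The 2-sided exact permutation test of 5 against 5 libraries gave p = 0.246 at 10 months and p = 0.302 at 3 months, where the smallest p it allows is 0.00794. Averaged over both ages in edgeR's quasi-likelihood fit, the log2 fold change of Abca7, KI over control, was -0.16 ± 0.09 (SE), with a 95% interval from -0.35 to 0.03 and a Benjamini-Hochberg adjusted p of 0.831. The substitution changes a coding base, so the level of Abca7 RNA does not check the genotype labels.

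The genes directly beside Abca7 did not differ between genotypes beyond the spread of the libraries. Cnn2, which encodes the actin-binding protein calponin 2 and ends 431 bases before Abca7 starts, lies at chr10:79988584-79996062. It had 5.47, 4.79, 3.94, 4.79 and 4.20 CPM in KI libraries at 10 months, against 4.17, 3.19, 5.93, 4.40 and 5.02 CPM in controls. At 3 months Cnn2 had 3.38, 4.50, 6.49, 5.24 and 6.70 CPM in KI libraries, against 4.54, 4.94, 4.89, 3.99 and 3.04 CPM in controls. The KI libraries included both the highest Cnn2 value and values inside the control range, and the exact permutation p was 0.865 at 10 months and 0.206 at 3 months. Without KI replicate 3 the log2 fold change of Cnn2 at 3 months was 0.41 ± 0.17 (unadjusted p 0.0244, adjusted p 0.998 in edgeR). Hmha1 at chr10:80016653-80031472, which encodes a GTPase-activating protein of blood cells and starts 1080 bases past the end of Abca7, averaged 9.58 ± 0.95 CPM in KI libraries and 9.08 ± 2.17 CPM in controls at 10 months (SD, n = 5 each), with an exact permutation p of 0.667. At 3 months Hmha1 averaged 5.30 ± 1.92 CPM in KI libraries and 5.14 ± 0.69 CPM in controls (SD, n = 5 each), with an exact permutation p of 0.873. Its log2 fold change at 3 months was 0.04 ± 0.22, and 0.23 ± 0.16 without KI replicate 3, the lowest library (adjusted p 0.998 in edgeR).

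**Figure D1:**
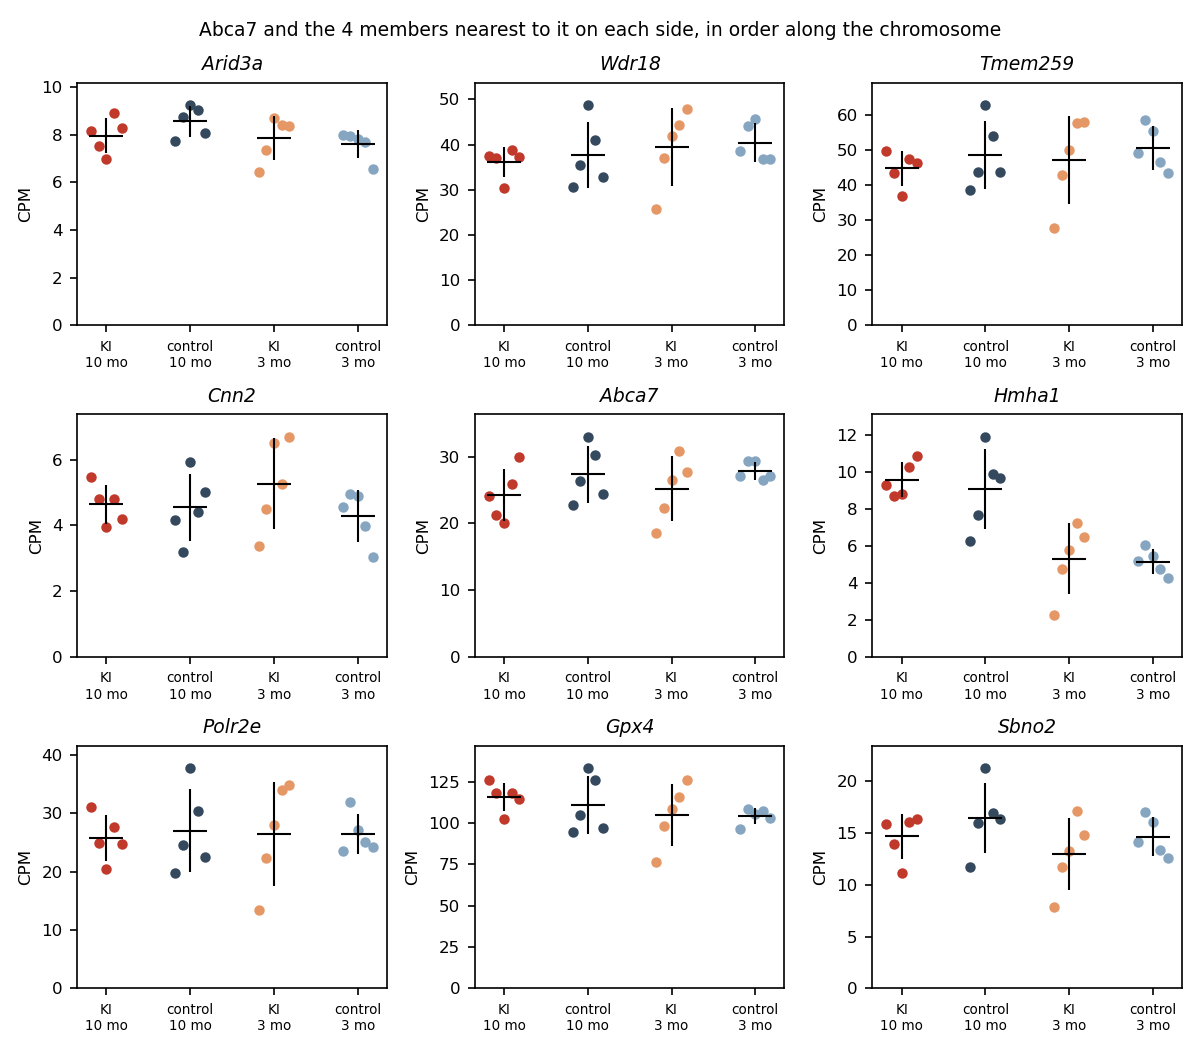
CPM of Abca7 and of the 4 members nearest to it on each side, one point per library with the mean and SD over 5 libraries, in KI and control cortex at 10 and 3 months. KI and control libraries overlap in every panel at both ages, and Hmha1 is higher at 10 months than at 3 months in both genotypes.

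None of the other 6 of the 8 nearest members differed between genotypes beyond the spread of the libraries either. On the Cnn2 side, Tmem259, which encodes the endoplasmic reticulum protein membralin, averaged 44.8 ± 4.99 CPM in KI libraries and 48.6 ± 9.75 CPM in controls at 10 months (SD, n = 5 each). Wdr18, a gene of ribosome assembly, averaged 36.2 ± 3.31 CPM in KI libraries and 37.8 ± 7.29 CPM in controls at that age. Arid3a, a DNA-binding factor of B cells, averaged 7.96 ± 0.74 CPM in KI libraries and 8.57 ± 0.65 CPM in controls. On the Hmha1 side, Polr2e, a subunit shared by the nuclear RNA polymerases, averaged 25.8 ± 3.94 CPM in KI libraries and 27.04 ± 7.16 CPM in controls at 10 months. Gpx4, the peroxidase that protects membrane lipids from oxidation, averaged 116 ± 8.56 CPM in KI libraries and 111 ± 17.5 CPM in controls. Sbno2, a transcriptional regulator, averaged 14.7 ± 2.20 CPM in KI libraries and 16.5 ± 3.40 CPM in controls. Over the 18 exact permutation tests of these 8 genes and Abca7 at the 2 ages, p ran from 0.206 to 0.984 and the Benjamini-Hochberg adjusted p from 0.975 to 0.984. Averaged over ages, the 95% interval that reached lowest among the 8 was that of Sbno2, from -0.42 to 0.09 in log2 units, and the one that reached highest was that of Cnn2, from -0.11 to 0.43. Tmem259 shares bases with Grin3b on the other strand, and without knowledge of the strand setting their reads cannot be told apart.

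Across the window, no member was called (adjusted p under 0.05 in edgeR over 19623 genes) for genotype. At 10 months 0 of 137 members were called, against 0.0612% of all genes tested, and at 3 months 0 of 137, against 0.0255%. Averaged over ages the count was 0 of 137, against 0.0764%, and for the genotype by age interaction 0 of 137, against 0%. At an unadjusted p under 0.05 there were 4 members at 10 months, where the share over all genes was 7.86%, and 5 members at 3 months, where it was 3.8%. Averaged over ages there were 9, where the share over all genes was 6.52%, and in the interaction 3, where it was 4.5%. These counts moved with the processing: at 10 and 3 months they were 15 and 12 with a GC offset per library, and 8 and 19 in limma-voom. The shares over all genes above are of the main edgeR fit. Those under the other settings are not given here, so these counts cannot be set against a background. DESeq2 called 1 member at 10 months (Celf5), against 59 of 19623 genes, and 0 at 3 months, against 12. Limma-voom also called Celf5 alone at 10 months, against 75 of 19623 genes, and 0 members at 3 months, against 12. The intervals bound what could have been missed: at 10 months the 95% interval of the fold change lay within 1.5-fold either way for 104 of 137 members and within 2-fold for 132. At 3 months these counts were 114 and 130, and averaged over ages 126 and 134. The members whose interval reached past 2-fold in the averaged comparison had mean counts of 24.2 or less.

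**Figure D2:**
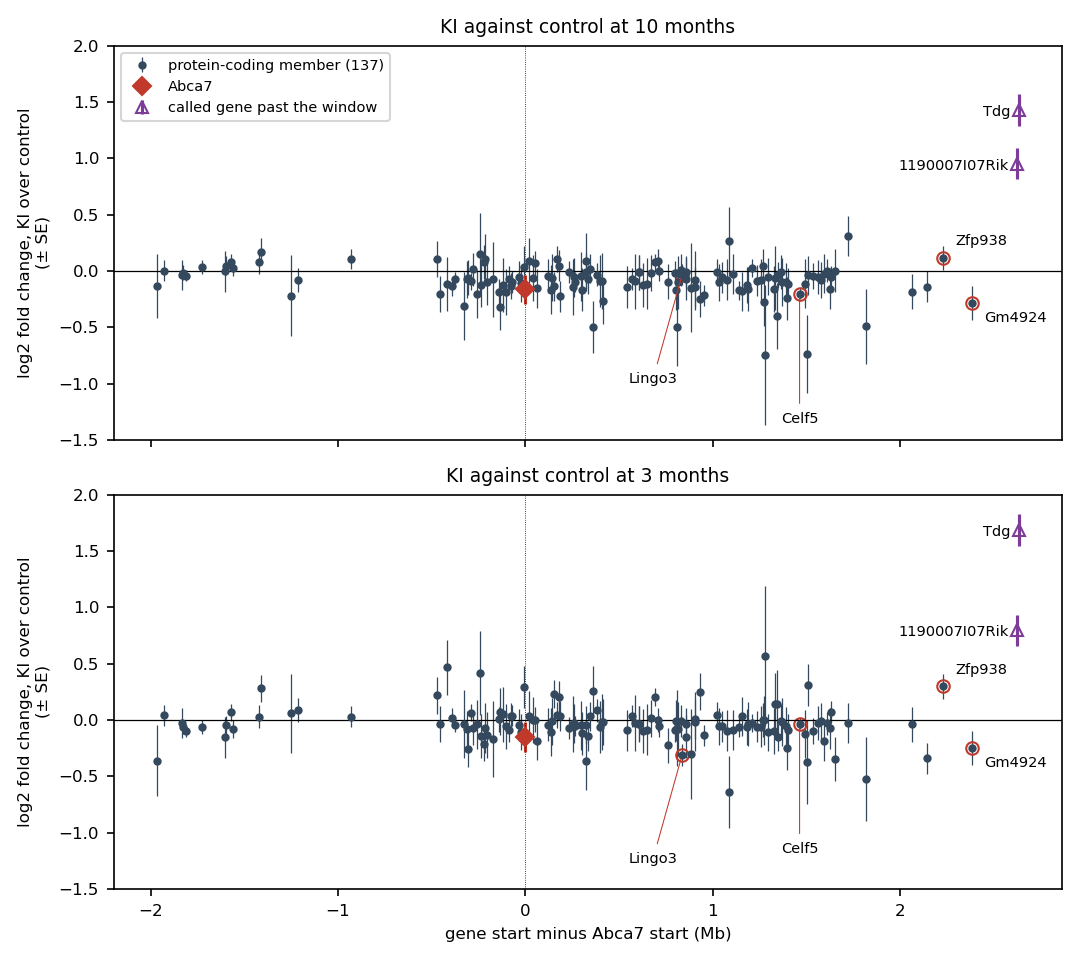
Log2 fold change, KI over control, with its SE against the distance of each gene start from that of Abca7, at 10 months (upper panel) and 3 months (lower panel). Most members lie close to 0 on both sides of Abca7, with a range of -0.75 to 0.31 at 10 months and -0.64 to 0.57 at 3 months. Tdg and 1190007I07Rik, which start 2.63 and 2.62 Mb past Abca7 and outside the window, lie above that range at both ages. Circles mark Celf5, Lingo3, Zfp938 and Gm4924.

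The medians by distance from Abca7 lay between -0.09 and -0.04 at 10 months, with no order by distance, and at 3 months they were lower in the distant groups than in the nearest. The 10 members within 100 kb of Abca7 had a median log2 fold change of -0.06 at 10 months and 0.0013 at 3 months, and 5 of the 10 were above 0 at 3 months, against 5 of the 26 beyond 1500 kb. The 43 members at 100 to 500 kb had medians of -0.09 at 10 months and -0.03 at 3 months, and the 26 members at 500 to 1000 kb had -0.08 and -0.03. The 32 members at 1000 to 1500 kb had medians of -0.09 at 10 months and -0.05 at 3 months. The 26 members beyond 1500 kb had a median of -0.04 at 10 months and -0.06 at 3 months. With all libraries kept, none of the 10 nearest had an unadjusted p under 0.05 in edgeR at either age. Without KI replicate 3, Cnn2 had an unadjusted p of 0.0244 in edgeR at 3 months. Averaged over ages, members under that p numbered 0 of 10 within 100 kb and 0 of 43 at 100 to 500 kb. Farther out they numbered 3 of 26 at 500 to 1000 kb, 2 of 32 at 1000 to 1500 kb and 4 of 26 beyond. The share over all genes was 6.52%. The trend at 3 months was not tested, and the members' values at that age moved with single libraries.

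As a group the members sat slightly below 0. The median log2 fold change was -0.07 at 10 months and -0.04 at 3 months, against 0.0002 and 0.0054 over all genes tested, and 107 of 137 members at 10 months and 96 of 137 at 3 months were below 0. At both ages 82 members were below 0 and 16 above 0. Protein-coding genes on the rest of chromosome 10 had medians of 0.0075 at 10 months and 0.02 at 3 months. The size and the sign of the group median rested on single libraries. Without control replicate 8 the median at 10 months was 0.0072, and without the high-Xist KI replicate 5 it was 0.0033. At 3 months the median was 0.09 without KI replicate 3 and 0.0048 without control replicate 7. In limma-voom, which gives libraries that fit poorly less weight, the medians were 0.04 at 10 months and 0.05 at 3 months.

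Genes outside the window with GC-rich transcripts had a similar shift. The longest transcripts of the members had a median of 58.5% GC (136 members with a value), against 49.9% over all protein-coding genes tested, and 126 members lay above that value. Of protein-coding genes outside the window, the 1238 whose transcripts were at least as GC-rich as the median member had a median log2 fold change of -0.08 at 10 months and -0.05 at 3 months. Of these, 27.5% at 10 months and 31.7% at 3 months were above 0, against 21.9% and 29.9% of the members. With genes outside the window split by GC content into 5 equal groups, the median at 10 months was 0.03 in the lowest group and -0.05 in the highest, and at 3 months 0.04 in the lowest and -0.03 in the highest. Library by library, members and these other genes lay at almost the same distance from their means: -0.32 and -0.35 log2 units in KI replicate 5 at 10 months, 0.32 and 0.34 in control replicate 8 at 10 months, and -0.60 and -0.61 in KI replicate 3 at 3 months. With a GC offset fitted per library, the members' median was -0.0066 at 10 months and -0.025 at 3 months, and 0 members were called at either age. That offset was fitted to each library's trend with GC over genes that included the members. It moves GC-rich genes toward 0 by design, so this median is not a separate check. The part of base composition in the members' shift was not tested.

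**Figure D3:**
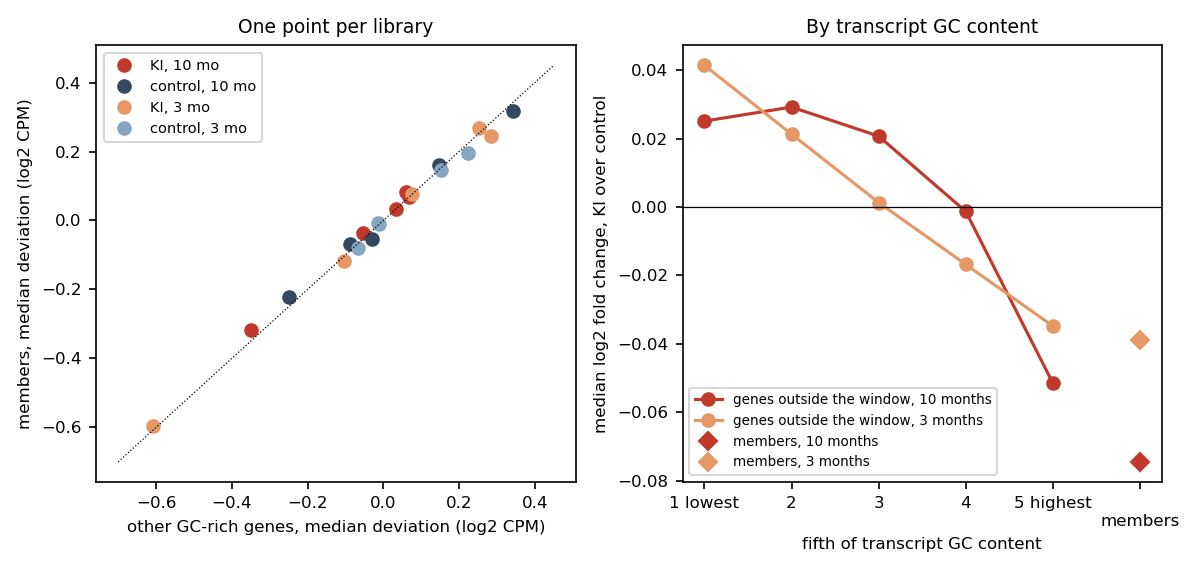
Left, the median deviation of the 137 members from their means over all libraries (log2 CPM) against that of 1238 GC-rich protein-coding genes outside the window, one point per library, with the dotted line of equality. Right, the median log2 fold change, KI over control, in 5 equal groups of transcript GC content outside the window, with the members as diamonds; the points on the left follow the line of equality, and the highest group on the right lies below 0 at both ages.

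Sorted by role, no member of any list was called for genotype in the main edgeR fit. Celf5, called at 10 months by other tools, is on the RNA-binding list. Lingo3, called at 3 months in the fit with 1 surrogate variable, is on the synaptic list. The 10 lists of roles cover 103 of the members. Of the 12 RNA-binding members, 0 were called in edgeR at either age (1 at 10 months in DESeq2, limma-voom and the fit with 1 surrogate variable), and 11 of 12 lay below 0 at 10 months (median -0.09) and 9 of 12 at 3 months. Of 17 synaptic and neuronal signalling members, 0 were called in the main edgeR fit (1 at 3 months, Lingo3, with 1 surrogate variable). Their medians were -0.08 at 10 months and -0.07 at 3 months. The 18 chromatin and transcription members had medians of -0.11 at 10 months and -0.06 at 3 months, with 0 called; in this group Zbtb7a, a transcriptional repressor, differed by -0.12 ± 0.06 log2 units averaged over ages (adjusted p 0.788). The 8 ribosome and translation members had medians of -0.02 and -0.04 at the same ages. Eef2, the translation elongation factor, had the highest level per length of any member, at 217 CPM per kb of gene model, and averaged 633 ± 76.3 CPM in KI libraries and 694 ± 132 CPM in controls at 10 months (SD, n = 5 each). Rps15, on the same list, was next at 216 CPM per kb. The other members named for high mean CPM were not picked by level per length. Of these, Bsg, a glycoprotein that escorts lactate transporters to the membrane, had 165 CPM per kb. Rrp1, a ribosomal RNA processing gene, had 129, and Pip5k1c, a lipid kinase of synapses, had 57.3. The 7 mitochondrial members had medians of -0.08 at 10 months and -0.02 at 3 months, and Polrmt, the mitochondrial RNA polymerase, differed by -0.12 ± 0.15 averaged over ages (adjusted p 0.944). All 15 membrane traffic members lay below 0 averaged over ages, the lowest at -0.14 and the highest at -0.0098; in the whole window 106 of 137 members lay below 0 in this comparison, and in limma-voom 94 of 137 lay above 0. None of the 15 was called, and Trappc10, a subunit of a vesicle tethering complex, differed by -0.07 ± 0.04 (adjusted p 0.770). Scamp4, on this list, and Adat3, on the RNA-binding list, lie at chr10:80602882-80615783 and chr10:80602880-80615783. Their counts were close, as with 969 and 1033 in KI replicate 3 at 3 months, so they may not be separate measurements. Of the 11 immune and blood-cell members 0 were called, with medians of -0.04 at 10 months and 0.04 at 3 months. The 13 kinase and cell cycle members, the 6 lamina and cytoskeleton members and the 3 genes named Zfp had 0 calls as well.

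One member separated the genotypes at 10 months. Celf5 at chr10:81459227-81482709, which encodes a neuronal RNA-binding protein of the CELF splicing family, had 212, 213, 210, 201 and 216 CPM in KI libraries, against 239, 250, 247, 248 and 233 CPM in controls. Every KI library lay below every control library. Members with KI libraries all below control libraries numbered 1 of 137 at 10 months, against 0.668% of all genes tested, so the count is close to the background. The log2 fold change was -0.20 ± 0.05 (SE), a difference of -13.0% in KI, and its 95% interval ran from -0.30 to -0.10. In edgeR the adjusted p was 0.207 (unadjusted 0.000376). DESeq2 gave an adjusted p of 0.00321, limma-voom 0.0310 and a fit with 1 surrogate variable 0.00523, and the range over all alternatives was 0.00321 to 0.715. Without the high-Xist KI replicate 5 the log2 fold change was -0.19 with an adjusted p of 0.207 in edgeR. With the GC offset it was -0.18 with an adjusted p of 0.162.

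At 3 months the KI and control libraries of Celf5 overlapped. It had 222, 245, 264, 261 and 246 CPM in KI libraries and 247, 261, 254, 253 and 247 CPM in controls, a log2 fold change of -0.03 ± 0.05 (edgeR, adjusted p 1.00). The difference between the ages, tested as the genotype by age interaction, was -0.17 ± 0.07 with an unadjusted p of 0.0207 and an adjusted p of 1.00 in edgeR. Celf5 overlaps Gm16105 on the other strand, and their reads cannot be told apart here.

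At 3 months the member with the smallest p was Lingo3 at chr10:80832807-80844039, which encodes a leucine-rich repeat membrane protein of the LINGO family. It had 14.2, 18.3, 20.5, 21.3 and 22.2 CPM in KI libraries, against 22.7, 23.7, 22.6, 23.8 and 26.1 CPM in controls. The 2 sets did not overlap, though KI replicate 7 and control replicate 8 were 22.2 and 22.6 CPM. Members with KI libraries all below control libraries numbered 1 of 137 at 3 months, against 0.306% of all genes. The log2 fold change was -0.31 ± 0.10 (adjusted p 0.986 in edgeR), and -0.21 without KI replicate 3, the library with the lowest value. With 1 surrogate variable the adjusted p was 0.0301. At 10 months Lingo3 averaged 22.4 ± 1.45 CPM in KI libraries and 23.01 ± 2.11 CPM in controls (SD, n = 5 each), a log2 fold change of -0.03 ± 0.10, and 0.01 without the high-Xist KI replicate 5.

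Other members of small unadjusted p stayed within the error of the whole table. At 10 months these were Gng7, a G protein gamma subunit of neurons, at -0.21 ± 0.09 log2 units (adjusted p 0.588 in edgeR), Plk5, a polo-like kinase family member of brain, at -0.50 ± 0.23 (adjusted p 0.621), and S1pr4, a sphingosine phosphate receptor of lymphocytes, at -0.74 ± 0.35 (adjusted p 0.626). S1pr4 rested on a mean of 11.9 counts a library. Without the high-Xist KI replicate 5, Plk5 was at -0.35 (unadjusted p 0.126) and S1pr4 at -1.08 (unadjusted p 0.00548, adjusted p 0.304). Gng7 had 117, 110, 111, 91.7 and 137 CPM in KI libraries at 10 months, against 120, 126, 151, 130 and 135 CPM in controls, and the groups overlapped. At 3 months Mob3a, a kinase coactivator, differed by 0.20 ± 0.08 (adjusted p 1.00). Syde1, a GTPase-activating protein, differed by 0.23 ± 0.08 averaged over ages (adjusted p 0.650). In the interaction, Plk5 at -0.75 ± 0.32, Gadd45b, a stress-induced gene, at -0.50 ± 0.23, and Creb3l3, a membrane-bound transcription factor best known from liver, at 0.90 ± 0.44 had the next smallest unadjusted p after Celf5, each with an adjusted p of 1.00 in edgeR.

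The 3 members at the far end of the window were all among the 8 of smallest p averaged over ages, and they did not share a direction. Zfp938, a zinc finger gene at chr10:82224850-82241280, had 24.2, 24.99, 28.8, 20.2 and 21.7 CPM in KI libraries at 10 months and 24.4, 21.3, 19.1, 22.2 and 24.2 CPM in controls. At 3 months Zfp938 had 34.4, 26.8, 25.8, 23.4 and 24.8 CPM in KI libraries, against 23.9, 18.7, 20.3, 22.5 and 23.98 CPM in controls. The single highest value was KI replicate 3 at 3 months, and the groups overlapped at both ages. At 3 months the log2 fold change of Zfp938 was 0.30 ± 0.11 (unadjusted p 0.0120 in edgeR), and 0.20 ± 0.10 without that library (unadjusted p 0.0560). Averaged over ages the log2 fold change of Zfp938 was 0.21 ± 0.08 (adjusted p 0.643 in edgeR), that of AU041133 -0.24 ± 0.10 (adjusted p 0.709) and that of Gm4924 -0.27 ± 0.11 (adjusted p 0.697). Their transcripts were the least GC-rich of the members, at 36.7% for Zfp938, 36.8% for Gm4924 and 38.0% for AU041133. Zinc finger genes of one cluster can share sequence, and no source used here says how reads that match several copies were counted.

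The values just inside and just outside the edges of the window are given here as a description. At the lower edge, the first members, Aire, the thymic transcription regulator, and Icosl, had log2 fold changes averaged over ages of -0.25 ± 0.21 and 0.02 ± 0.07. Pfkl and 1810043G02Rik, which lie just outside that edge, had -0.13 ± 0.12 and -0.04 ± 0.07. At the upper edge, Zfp938 and Gm4924 are the last members, and the first protein-coding genes past it are 1190007I07Rik at 0.87 ± 0.10 and Tdg, the thymine DNA glycosylase gene, at 1.56 ± 0.10. Tdg lies at chr10:82629828-82650799. Of the 636 protein-coding genes tested on the rest of chromosome 10, edgeR called 4 for genotype at 10 months and 3 at 3 months. Tdg and 1190007I07Rik were among them at both ages. The others called at 10 months were Cfap54 at -1.67 ± 0.13 and Hal at -4.04 ± 0.57, 12.8 and 13.5 Mb from Abca7. Cfap54 was also called at 3 months, and Txnrd1, 2.86 Mb from Abca7, averaged over ages at -0.20 ± 0.03. In the window edgeR called 0 of 137 members at either age, against 0.0612% of all genes tested at 10 months and 0.0255% at 3 months. With calls this rare, 0 of 137 does not set the window apart. At the count minimum, Misp at a mean of 11.8 counts, S1pr4 at 11.9 and Tmprss9 at 12.4 were just over it, and Atp8b3 at 9.05, Odf3l2 at 8.85 and Gm3055 at 6.60 just under it.

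Between 10 and 3 months few members were called, no larger a share than among all genes. In KI cortex 5 of 137 members were called between 10 and 3 months, against 8.06% of all genes tested, and in control cortex 4 of 137, against 4.07%. Higher at 10 months were 4 in KI, against 5.66% of all genes, and 4 in control, against 3.72%, and these were Icosl, Gna15, Hmha1 and Cstb in both genotypes. Lower at 10 months was 1 in KI, against 2.41%. All 4 are on the list of 11 immune and blood-cell members, chosen with earlier results of these data known, whose median log2 fold change was 0.27 in KI and 0.26 in control, against -0.0031 and -0.0034 over all genes. Not all of the list rose, and Gzmm averaged lower at 10 months than at 3 months in controls. Icosl, the ligand of the T cell costimulator ICOS, had 9.12, 9.43, 9.19, 10.2 and 10.3 CPM in KI libraries at 10 months, against 6.22, 7.30, 6.15, 6.54 and 6.93 CPM at 3 months. In controls Icosl had 7.32, 10.7, 9.87, 10.0 and 10.5 CPM at 10 months, against 5.98, 6.46, 6.65, 6.78 and 6.22 CPM at 3 months. Every 10-month library lay above every 3-month library of its genotype, with log2 fold changes of 0.52 ± 0.09 in KI (adjusted p 0.00087 in edgeR) and 0.56 ± 0.09 in control (adjusted p 0.000525).

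Gna15, a G protein alpha subunit of blood cells, averaged 1.95 ± 0.19 CPM at 10 months and 1.15 ± 0.24 CPM at 3 months in KI libraries (SD, n = 5 each), and 2.01 ± 0.44 CPM at 10 months and 0.92 ± 0.22 CPM at 3 months in controls. The log2 fold changes of Gna15 were 0.73 ± 0.18 in KI (adjusted p 0.0120 in edgeR) and 1.08 ± 0.18 in control (adjusted p 0.000544). The interaction for Gna15 was -0.35 ± 0.25 (adjusted p 1.00), so the size of its rise was not shown to differ by genotype. Gna15 overlaps Gm16106 and Gm25595 on the other strand. Hmha1, the neighbour of Abca7, rose by 0.83 ± 0.21 log2 units in KI (adjusted p 0.0175) and by 0.79 ± 0.21 in control (adjusted p 0.0394). Cstb, which encodes the protease inhibitor cystatin B, rose by 0.27 ± 0.07 in KI (adjusted p 0.0205) and by 0.26 ± 0.07 in control (adjusted p 0.0471). The calls of Hmha1 and Cstb were lost in both genotypes when certain single libraries were left out and under other choices, among them fitting only the compared libraries in KI (adjusted p 0.0720 for Hmha1 and 0.0586 for Cstb) and no low-count filter in controls (0.0539 and 0.124). Over all alternatives the adjusted p in controls reached 0.120 for Hmha1 and 0.147 for Cstb; without the high-Xist KI replicate 5 the adjusted p of Cstb in KI was 0.0516. Those of Icosl and Gna15 held under every alternative run, the highest adjusted p being 0.0398.

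**Figure D4:**
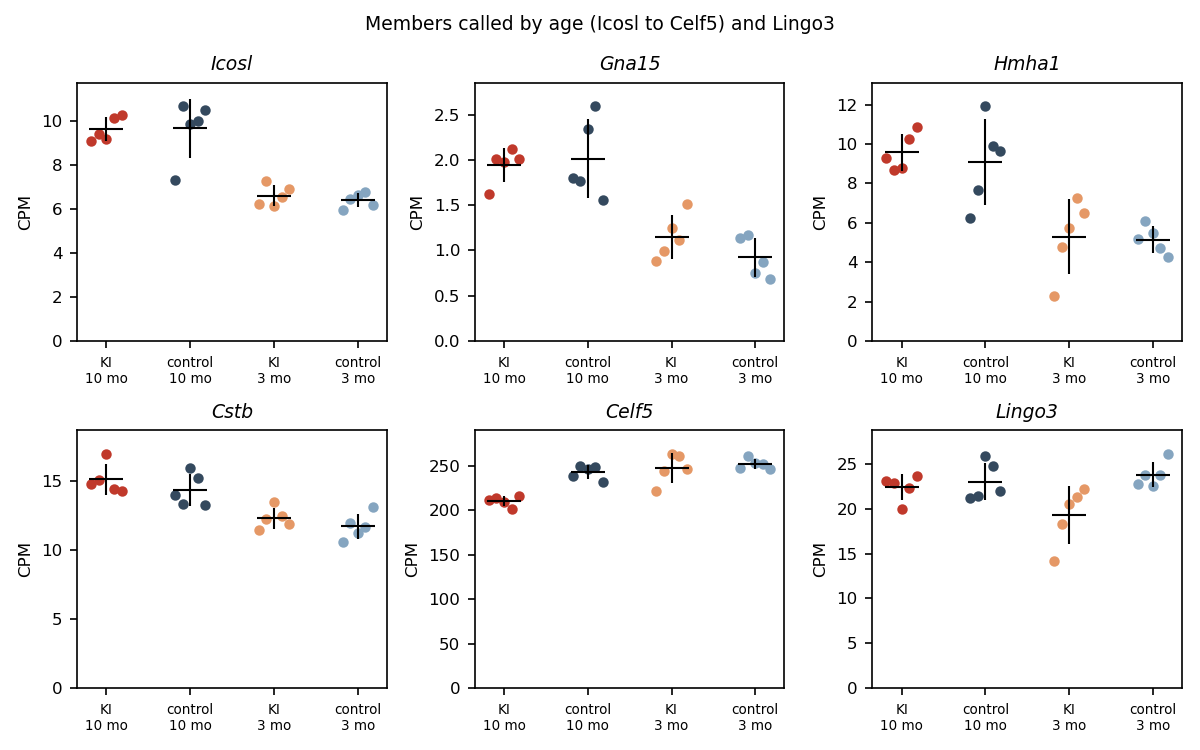
CPM of the 5 members called between 10 and 3 months in at least one genotype, and of Lingo3, with one point per library and the mean and SD over 5 libraries. Icosl, Gna15, Hmha1 and Cstb are higher at 10 months in both genotypes, and the 5 KI libraries of Celf5 at 10 months lie below all other libraries but none of the other panels shows such a split by genotype at that age.

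Microglial markers were higher at 10 months, as Icosl, Gna15, Hmha1 and Cstb were. The summed CPM of C1qa, Cx3cr1, Tmem119, P2ry12 and Csf1r, of which 5 of 5 were detected in every library, ran from 381 to 461 in KI libraries at 10 months and from 197 to 235 in KI libraries at 3 months. In controls it ran from 331 to 425 at 10 months and from 179 to 231 at 3 months. Neutrophil granule genes summed to 3.34 CPM or less in every library. In bulk tissue, more cells of a type and more RNA per cell cannot be told apart, and the part of the microglial markers in the rise of these members was not tested.

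Celf5 was the single member called lower at 10 months in edgeR, where 89 of 137 members lay below 0 in KI. DESeq2 called 2 members lower in KI, limma-voom 6, the GC offset 4 and the fit with 1 surrogate variable 19. The shares of all genes called lower in these fits are not given here. In either direction, DESeq2 called 6 of 137 members in KI, against 2092 of 19623 genes. Limma-voom called 14 of 137, against 3027 of 19623 genes, and the GC offset 17 of 136, against 3006 of 19405. In KI Celf5 fell by 0.25 ± 0.05 on the log2 scale between 3 and 10 months (adjusted p 0.00122 in edgeR), and in control its log2 fold change was -0.09 ± 0.05 (adjusted p 0.461). As the interaction above did not pass the threshold, the fall was not shown to differ between genotypes. Without the high-Xist KI replicate 5 the fall in KI was -0.25 with an adjusted p of 0.00327.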

How the data were processed

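Bulk RNA-seq counts per gene of 20 cortex libraries were analysed. The raw counts were made by the authors and deposited as one table with gene coordinates and biotypes; reads were placed on mm10 per the submitters' processing notes, and the aligner, annotation release and strand setting are not given in the sources used here. Library totals were 42896149 to 57447015 counts, so precision for genotype was set mainly by 5 libraries per group. All 19623 genes that passed filterByExpr were fitted in edgeR 4.0.16 (R 4.3.3; TMM scaling, robust quasi-likelihood test, 4 group means, 16 residual degrees of freedom) with 6 contrasts and Benjamini-Hochberg adjustment over all genes; the call threshold was 0.05. CPM were counts scaled to a library total of 1000000. Abca7 and the 8 nearest members were also tested by exact permutation. The fits were tested on simulated counts drawn independently for each gene. These held no shift shared by the genes of a library, so such shifts were not covered. Alternatives used DESeq2 1.42.0, limma 3.58.1 and sva 3.50.0; a GC offset was added after seeing the data. Transcript GC came from GENCODE vM21 by gene ID (136 members).

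The members and lists were chosen with earlier results of these data known. Named genes were Abca7, the 4 nearest members on each side, the members of smallest p per genotype contrast (8 averaged, 4 for each other contrast), those called for age, the 4 of highest CPM, up to 3 per role list, the edge genes, and called protein-coding genes elsewhere on chromosome 10. Same-numbered libraries are not stated to be related. One marker gene is not reported here and was left out of its marker sum.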

Additional observations from a re-analysis of the deposited data

Results flagged for a closer look

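In 7 of the 136 groups of 5 libraries examined (34 named genes in 4 groups), the highest or lowest library stood apart from the other 4 by Dixon's test; chance gives about 1 in 20 groups. Wdr18 had 30.4 CPM in KI replicate 5 at 10 months, the high-Xist library, against 37.0 to 38.8 CPM in the others of its group. Gna15 had 1.63 CPM in KI replicate 3 at 10 months, against 1.98 to 2.12 CPM. Icosl had 7.32 CPM in control replicate 6 at 10 months, against 9.87 to 10.7 CPM. Gng7 had 102 CPM in KI replicate 3 at 3 months, the library in which members took the lowest share of counts, against 130 to 137 CPM. S1pr4 was high in KI replicate 6 at 3 months, at 0.26 CPM against 0.139 to 0.163 CPM. In control replicate 10 at 3 months, Arid3a had 6.58 CPM against 7.71 to 7.98 CPM, and Trappc10 had 127 CPM against 141 to 145 CPM.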

How the results depend on the processing

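Leaving out each library in turn gave 0 to 0 called members in the genotype contrasts and the interaction, 4 to 8 for age in KI and 2 to 4 for age in control. With 1 surrogate variable 1 member was called at 10 months, 1 at 3 months and 1 averaged over ages. That fit called 29 for age in KI and 17 for age in control. DESeq2 called 1 and limma-voom 1 at 10 months, against 59 and 75 of 19623 genes. For age in KI, limma-voom called 14 of 137 members, against 3027 of 19623 genes. The GC offset called 17 of 136 in that contrast, against 3006 of 19405 genes, and the fit of only the compared libraries called 3. For age in control, no low-count filter gave 2 and the GC offset 7 of 136, against 1333 of 19405 genes. Totals over all genes for the other fits are not given here. The shared replicate numbers gave no pairing: 3 of 18 same-numbered pairs correlated above 0.1, and 1 of 20 libraries correlated best with its own number. With the replicate block, 2 members were called for age in control and the members' median at 10 months was 0.1837. Only replicate numbers 6 and 7 occur in both genotypes. This block therefore fitted the genotype difference averaged over ages from the libraries of those numbers.

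Averaged over ages, the log2 fold change turned sign in limma-voom for Tmem259 (0.0126), Wdr18 (0.0541), Arid3a (0.0223), Polr2e (0.1246), Polrmt (0.013) and Icosl (-0.0125). With the replicate block it turned for Tmem259 (0.1515), Wdr18 (0.1899), Arid3a (0.0736), Polr2e (0.2977), Sbno2 (0.142), Abca7 (0.1276), Lingo3 (0.0154), Polrmt (0.2651), Zbtb7a (0.0242) and Eef2 (0.208), and with 1 surrogate variable for Polr2e (0.0245). Without single libraries it ranged from -0.0903 to 0.0094 for Wdr18, from -0.0088 to 0.1536 for Hmha1, from -0.0909 to 0.0506 for Polr2e, from -0.003 to 0.0801 for Gpx4 and from -0.022 to 0.0346 for Icosl. With the replicate block the averaged contrast rested on the libraries numbered 6 and 7, the only numbers found in both genotypes. The cause of the sign changes was not tested. Single-gene values numbered 26 that turned sign, 39 that lost and 5 that gained a call, and 1248 that did neither. The averaged contrast and the interaction use all libraries, so fitting only the compared ones was not run for them. Low counts limit S1pr4, Misp, Tmprss9 and Aire.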
